A study of Mus musculus with 32 samples.

Results

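The mouse major histocompatibility complex (MHC) genes were described in degradome data from 5 organs of mice deficient in Ftsj1 and of wild-type mice. Members were the 45 genes whose symbol starts with H2- and a capital letter and that are named in all 5 deposited tables, with B2m, Cd74, Tap1, Tap2, Tapbp and Ciita added, 51 of 55289 named genes. They fell into 32 class I genes, 12 class II genes, 4 class I accessory genes (B2m, Tap1, Tap2, Tapbp), 2 class II accessory genes (Cd74, Ciita) and H2-Ke6, which meets the rule by its symbol but encodes a steroid dehydrogenase. Ftsj1 encodes an enzyme that methylates transfer RNA. The groups were Ftsj1_DF, the label of the deficient mice, and WT, all males aged 4 months without special treatment. Brain, heart, kidney and liver came from the same 6 mice, with 3 libraries per genotype and organ, and spleen from 8 others, with 4 per genotype, 32 libraries in all. Several of the mice were brothers. The labels used here give neither the strain nor the way in which Ftsj1 was inactivated.

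Class I molecules sit on most cells and present peptides cut in the cytosol to CD8 T cells. Tap1 and Tap2 carry those peptides into the endoplasmic reticulum, Tapbp helps to load them, and B2m is the light chain that all classical class I molecules share. Class II molecules, made by B cells, dendritic cells and macrophages, present peptides from endosomes to CD4 T cells. Cd74, the invariant chain, guards their groove until H2-DM exchanges its remnant for a peptide, H2-O restrains H2-DM, and Ciita is the coactivator that switches the class II genes on. Degradome sequencing counts tags from RNA with a poly(A) tail whose 5' end has no cap, that is from decapped or cleaved transcripts, so a value here is not the level of intact mRNA.

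Start regions of 6 members are shown for the genes on which the levels below turn: H2-K1 and H2-D1, high in several tables, H2-Q10, high in a single table, and 3 class II genes. Each is the 250 bases before the RefSeq start on build GRCm38.p6, printed 5' to 3' on the gene's strand, with every CCAAT or its reverse ATTGG, the core of the Y box, in capitals. The class I windows were chr17:34000348-34000597 on the minus strand, chr17:35262844-35263093 on the plus strand and chr17:35469839-35470088 on the plus strand. For H2-K1, which has more than one listed start, the first in the table is shown.
H2-K1: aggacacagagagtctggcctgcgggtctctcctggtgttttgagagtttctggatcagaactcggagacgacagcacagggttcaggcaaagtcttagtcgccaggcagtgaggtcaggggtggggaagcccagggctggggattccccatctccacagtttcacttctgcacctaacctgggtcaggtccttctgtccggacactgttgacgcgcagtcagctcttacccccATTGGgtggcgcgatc
H2-D1: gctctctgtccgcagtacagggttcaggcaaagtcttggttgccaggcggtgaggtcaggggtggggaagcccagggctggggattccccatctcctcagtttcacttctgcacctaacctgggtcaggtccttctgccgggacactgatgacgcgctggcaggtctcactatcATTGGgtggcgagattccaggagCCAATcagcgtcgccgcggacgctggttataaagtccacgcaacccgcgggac
H2-Q10: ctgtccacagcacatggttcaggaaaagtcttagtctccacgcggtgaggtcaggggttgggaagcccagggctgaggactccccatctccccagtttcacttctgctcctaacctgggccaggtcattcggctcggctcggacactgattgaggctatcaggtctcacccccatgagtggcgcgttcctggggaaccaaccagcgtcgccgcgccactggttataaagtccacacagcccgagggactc

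The class II windows were chr17:34287824-34288073 on the minus strand, chr17:34305617-34305866 on the plus strand and chr17:34238655-34238904 on the plus strand.
H2-Aa: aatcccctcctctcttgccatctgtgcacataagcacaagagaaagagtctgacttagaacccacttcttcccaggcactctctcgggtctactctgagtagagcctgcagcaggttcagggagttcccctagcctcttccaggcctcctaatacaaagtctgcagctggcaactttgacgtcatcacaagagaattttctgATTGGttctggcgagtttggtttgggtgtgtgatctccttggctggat
H2-Eb1: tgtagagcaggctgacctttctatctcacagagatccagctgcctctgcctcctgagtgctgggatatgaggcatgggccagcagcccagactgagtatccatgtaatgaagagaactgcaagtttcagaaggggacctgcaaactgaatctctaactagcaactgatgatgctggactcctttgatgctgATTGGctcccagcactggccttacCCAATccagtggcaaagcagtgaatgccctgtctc
H2-Ob: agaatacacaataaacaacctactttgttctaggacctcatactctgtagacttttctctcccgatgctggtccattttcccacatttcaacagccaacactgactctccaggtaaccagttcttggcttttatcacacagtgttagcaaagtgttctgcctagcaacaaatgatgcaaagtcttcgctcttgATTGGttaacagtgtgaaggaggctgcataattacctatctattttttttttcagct

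CCAAT, on either strand, was found in the window of 31 of the 35 members with a promoter entry, 20 of 23 class I and 7 of 8 class II genes, against 33.8% of all 32851 RefSeq windows of that length. In H2-K1, H2-D1, H2-Aa, H2-Eb1 and H2-Ob its copy nearest to the start began at -16, -53, -48, -35 and -57. H2-Q10, H2-M5, H2-T3 and the first listed window of H2-DMa held none. TGACG, the core of cyclic AMP response elements, was in 11 of 23 class I windows and in 1 of 8 class II windows, that of H2-Aa, against 17.8% of all windows. TTTCNNTT, found in interferon response elements, was in 15 of 23 class I windows, H2-Q10 included, and in 2 of 8 class II windows, against 21.3%. GGGNNTTCC, an NF-kappaB core, was in 6 of 23 and 2 of 8 windows, against 4.98%. All were searched on both strands, and TGACG or TTTCNNTT may overlap other motifs. Over class I pairs the windows were identical at a median of 51.9% of aligned bases, with 88.8% for the closest pair, H2-M10.3 and H2-M10.5, and over class II pairs at a median of 49.5%. These matches describe letters in a window and no binding was measured.

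The authors' deposited tables give 1 mean normalised count per gene over all libraries of an organ, a log2 fold change with its standard error (SE), and p-values, so no value per library can be shown and depth per library is unknown. Positive log2 fold changes are read here as higher in Ftsj1_DF, because Ftsj1 itself was negative in all 5 tables (-1.56 to -3.38), with an adjusted p under 0.05 in the brain-named, liver-named and spleen tables only. The table named for brain holds hepatocyte transcripts, with 8 hepatocyte markers at 240052 ppm (normalised counts in 1000000 of the table sum) against 594 to 4305 elsewhere, and the table named for liver holds neuronal ones, with neuron markers at 2260 ppm against 19.5 to 42.5. They are called brain-named and liver-named throughout. The spleen table also carries 150622 ppm from pancreatic acinar markers. In tissue of mixed cells, fewer cells of a type and less RNA per cell cannot be told apart.

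Class I tags were most abundant in the brain-named table, at 6848 ppm of the table sum, 2550 of it from H2-Q10 alone. They came to 4317 in spleen (22.6 of it from H2-Q10), 1921 in kidney, 819 in heart and 400 in the liver-named table, all with both genotypes together. The classical genes H2-K1 and H2-D1, whose products present to CD8 T cells, made up much of that sum everywhere. H2-K1 stood at 2651 ppm in spleen, 2309 in the brain-named table, 675 in kidney, 376 in heart and 131 in the liver-named table. H2-D1 stood at 1039 ppm in the brain-named table and 954 in spleen, then 599 in kidney, 308 in heart and 141 in the liver-named table. For both genes the highest and the next table differed by less than 1.2-fold (1.15 for H2-K1, 1.09 for H2-D1), and without a spread over libraries it cannot be said whether such neighbours differ.

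H2-Q10, which encodes a secreted class I molecule made mainly by liver, had the widest contrast among the members found in every table. Its level was 2550 ppm in the brain-named table, 113-fold above the next, spleen at 22.6, with kidney at 16.0, the liver-named table at 13.2 and heart at 7.42. H2-Q1 followed the same order at the top, with 291 ppm in the brain-named table against 5.13 in spleen, 56.7-fold less, and 3.60 or less in the others. H2-Q3 was 12.2-fold higher in the brain-named table, at 11.0 ppm, than in spleen, and H2-Bl, a class I gene of the T region, 3.95-fold higher. H2-T22, a ligand of gamma-delta T cells, had another order: 460 ppm in kidney, 396 in the brain-named table, 80.2 in spleen, 73.1 in the liver-named table and 16.6 in heart. In the RefSeq annotation H2-T22 overlaps another gene, A930015D03Rik. H2-M3, which presents formylated peptides, was highest in spleen at 108 ppm and lay within 12.7 to 19.1 in the other 4 tables. H2-Q4, H2-Q6 and H2-Q7 were also highest in spleen, at 157, 237 and 61.1 ppm. Class I genes of these regions are close copies of each other, so reads may be split or lost between them, and values of single Q, T and M genes are uncertain to that extent. Of 28 class I genes with any tags, 16 had their highest level in the brain-named table, 10 in spleen and 2 in kidney. This count includes genes with very few tags, such as H2-M1 at 0.0108 ppm in the brain-named table and H2-M10.1 at 0.0180 in spleen. It also includes H2-Q3, H2-Q5, H2-Bl, H2-M6-ps and H2-M10.5-ps1, which RefSeq lists as pseudogenes and which were all highest in the brain-named table.

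**Figure D1:**
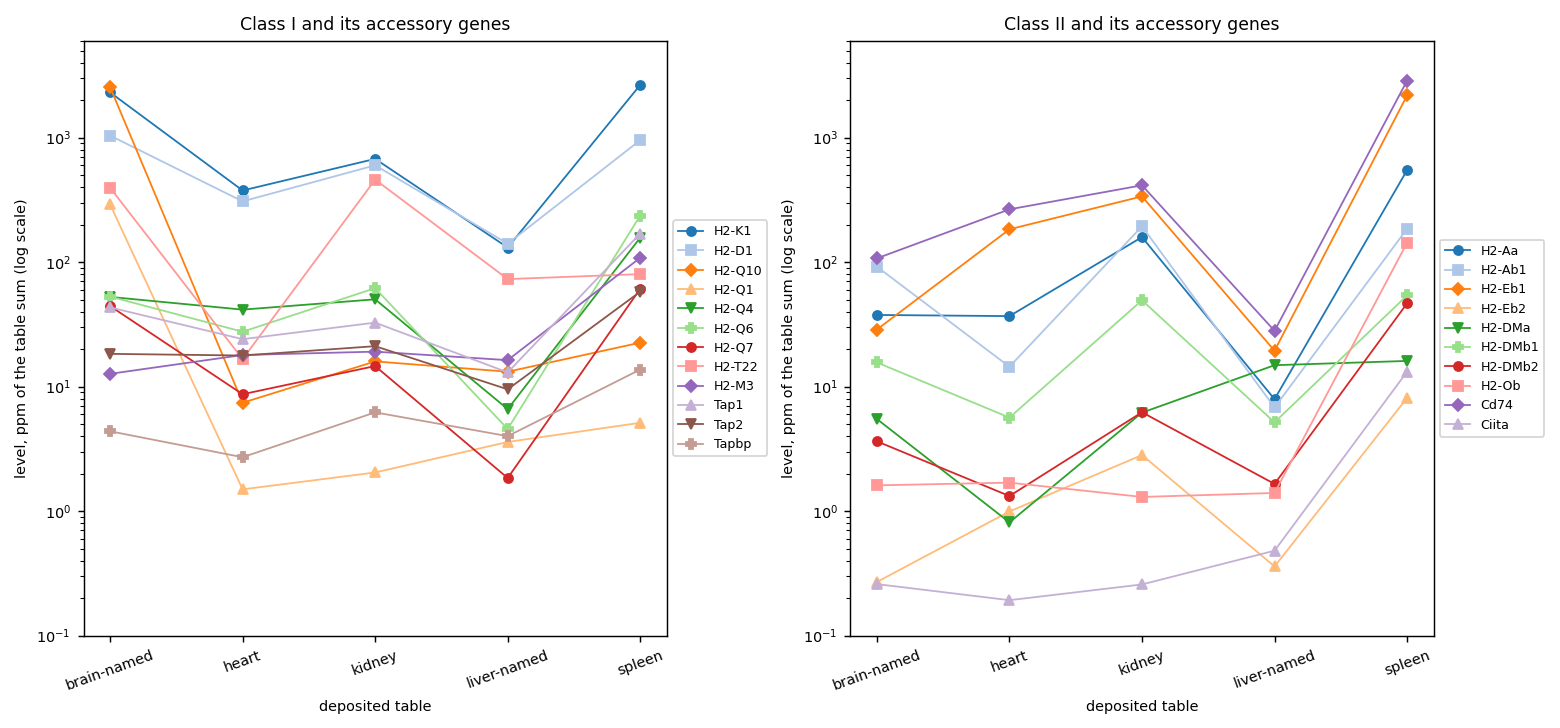
Level of class I genes (left) and class II genes (right), with their accessory genes, in the 5 deposited tables; the vertical axis is the mean over both genotypes in ppm of the table sum, on a log scale, and lines join the points of 1 gene. H2-Q10 and H2-Q1 peak in the brain-named table, at 2550 and 291 ppm, and most class II genes peak in spleen.

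Class II tags were most abundant in spleen, at 3183 ppm of the table sum, with 756 in kidney, 245 in heart and 185 in the brain-named table, and least abundant in the liver-named table, at 57.7. H2-Eb1, a beta chain, stood at 2181 ppm in spleen, 337 in kidney, 184 in heart and 28.7 in the brain-named table, and had its lowest level, 19.4, in the liver-named one. H2-Aa, the alpha chain of I-A, stood at 548 ppm in spleen and 159 in kidney, then 37.7 in the brain-named table, 36.9 in heart and 7.93 in the liver-named table. H2-Ab1, its beta chain, was about as high in kidney as in spleen, at 194 and 185 ppm, with 91.9 in the brain-named table, 14.5 in heart and 6.81 in the liver-named table. H2-Ob, the beta chain of H2-O and known from B cells, was the most spleen-bound of the class, at 143 ppm against 1.70 in heart, 84.5-fold less, and 1.30 to 1.61 in the other 3 tables. Ciita had the same shape at a lower level, 13.2 ppm in spleen against 0.482 or less elsewhere, a 27.4-fold gap to the liver-named table. Cd74 stood at 2869 ppm in spleen, 414 in kidney, 266 in heart and 107 in the brain-named table, down to 28.1 in the liver-named one. H2-DMa broke the pattern, with 16.1 ppm in spleen and 14.9 in the liver-named table, and 6.19 or less in the other 3. In the RefSeq annotation H2-DMa overlaps the gene Brd2, and the part of this overlap in its level was not tested. H2-Ea, the alpha chain of I-E, reached at most 0.117 ppm in any table. RefSeq lists H2-Ea as a transcribed pseudogene. Whether the mice carry an intact H2-Ea gene is not in the labels, since the strain is not given.

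Markers of antigen-presenting cells had their highest sums in the same table. B cell markers (12 genes) came to 13442 ppm in spleen against 52.7 to 95.2 in the other tables, dendritic cell markers (10 genes) to 829 against 21.6 to 53.8, and macrophage markers (12 genes) to 1958 against 187 to 497. The immunoglobulin gene Ighm alone gave 11666 ppm of the B cell sum in spleen, and 35.9 to 77.1 ppm in the other tables. Ms4a1, a defining B cell marker, was listed at 0 in all 5 tables, spleen included. Their part in the order of the class II levels was not tested.

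Tap1, Tap2 and Tapbp were highest in spleen as well. Tap1 stood at 170 ppm in spleen, 43.3 in the brain-named table, 32.7 in kidney, 24.1 in heart and 13.0 in the liver-named table. Tap2 ranged from 57.9 ppm in spleen to 9.52 in the liver-named table, and Tapbp from 13.7 in spleen to 2.71 in heart.

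Ratios of 2 members within a table do not depend on how tables are scaled, and only their change between tables is read here, since tags per gene also depend on where transcripts are cut. The mean of H2-Eb1 over that of H2-Ab1 was 12.7 in heart, 11.8 in spleen, 2.86 in the liver-named table, 1.74 in kidney and 0.313 in the brain-named table, a 40.6-fold range. H2-Aa over H2-Ab1 was also lowest in the brain-named table, at 0.410, and was highest in spleen, at 2.96, ahead of heart at 2.55, a 7.22-fold range. By contrast, Cd74 over H2-Aa stayed between 2.61 in kidney and 7.20 in heart. The classical pair H2-K1 over H2-D1 ranged from 0.931 in the liver-named table to 2.78 in spleen. H2-Q10 over H2-K1 was 1.10 in the brain-named table and between 0.00851 and 0.101 elsewhere. H2-Ob over H2-DMb1 was 2.65 in spleen and 0.0263 in kidney, and H2-DMb2 over H2-DMb1 was 0.863 in spleen against 0.126 to 0.320 in the others. Tap1 over H2-K1 was lowest in the brain-named table, at 0.0188, and highest in the liver-named one, at 0.0994. These ratios have no deposited error across libraries.

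**Figure D2:**
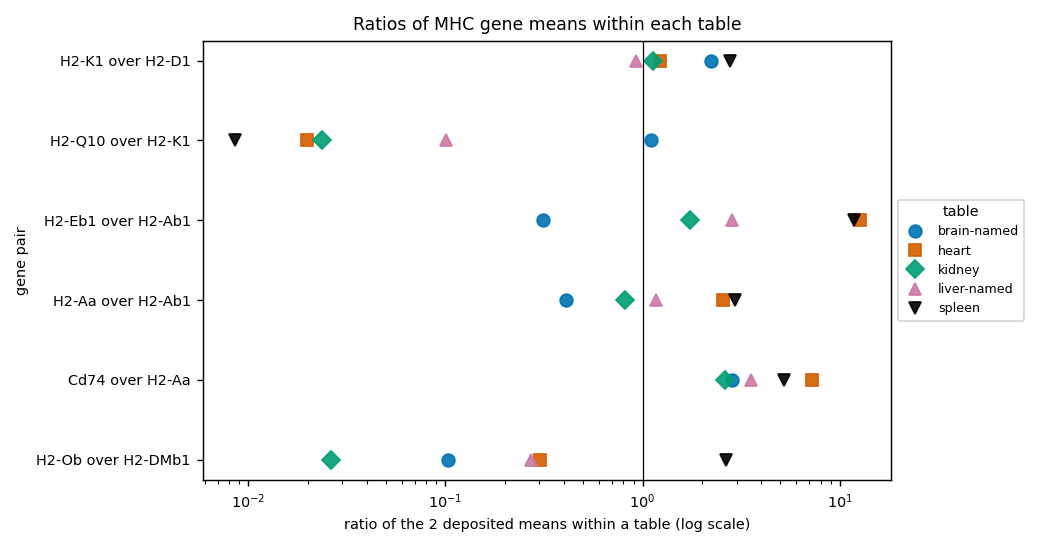
Ratio of the deposited means of 2 MHC genes within each table (horizontal log axis) for 6 gene pairs (rows), with 1 symbol per table and a line at 1. H2-Eb1 over H2-Ab1 spans 0.313 to 12.7, whereas H2-K1 over H2-D1 stays between 0.931 and 2.78.

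By genotype, no MHC gene changed in any organ table at an adjusted p under 0.05 by the authors' DESeq2 test. Members with an adjusted p, called tested, numbered 30 in the brain-named table, 28 in heart, 26 in kidney, 27 in the liver-named table and 33 in spleen. Over all tested genes, 0.414% passed in the brain-named table, 1.19% in heart, 2.07% in kidney, 0.203% in the liver-named table and 0.217% in spleen, so 0 members of about 30 is near the background. The smallest adjusted p among the members was 0.292 (H2-Q3), 0.201 (H2-Ab1), 0.200 (H2-Q4), 0.454 (H2-DMb2) and 0.852 (H2-DMa), in the order just used. At an unadjusted p under 0.05 there were 1, 5, 2, 2 and 0 members, or 3.33%, 17.9%, 7.69%, 7.41% and 0% of those tested, where all tested genes gave 10.8%, 10.6%, 11.9%, 10.4% and 5.97%. These p-values measure the spread between 6 or 8 mice, some of them brothers.

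The limit that these sizes set can be stated per gene. For H2-K1 a call would have needed a change of 2.29-fold in the brain-named table, 2.23-fold in heart, 2.21-fold in kidney, 3.18-fold in spleen or 3.36-fold in the liver-named table, taking the smallest Wald statistic called in each table and the SE of H2-K1. Over all 144 tested member values, 33 had a 95% interval lying wholly within a 2-fold change either way.

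**Figure D3:**
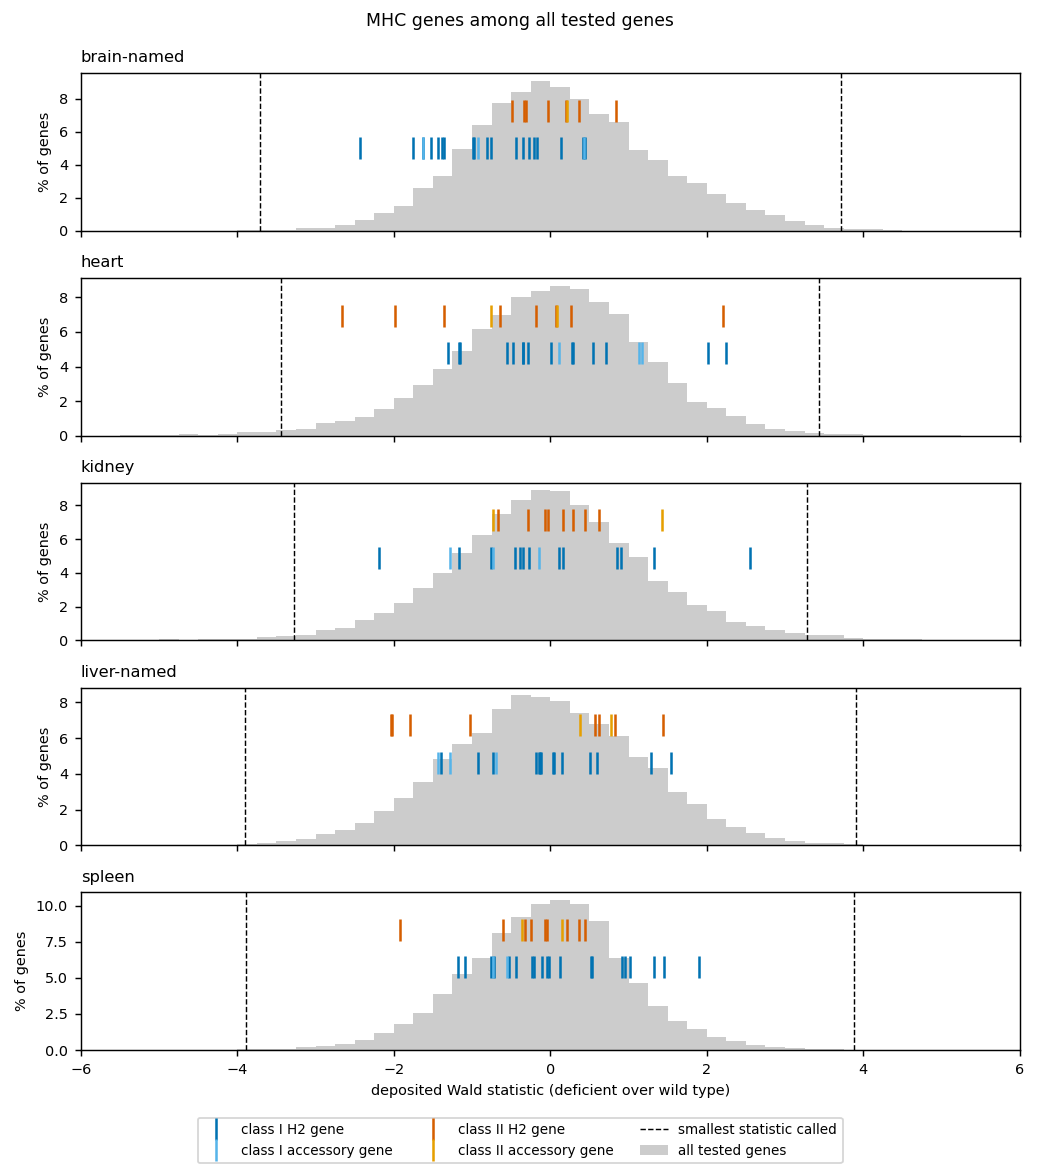
Deposited Wald statistic (log2 fold change over its SE, horizontal axis) of all tested genes as a histogram in percent of genes (grey), with each tested MHC gene as a tick, 1 panel per table; tick heights carry no value and dashed lines mark the smallest statistic called. No tick passes a dashed line; the members farthest out are H2-Ab1 in heart and H2-Q4 in kidney.

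Among the classical class I genes, neither member passed in any of the authors' deposited tables. H2-K1 had -0.49 ± 0.32 (SE, adjusted p = 0.643) in the brain-named table, with implied means of 198143 normalised counts in WT and 140916 in Ftsj1_DF. Elsewhere its log2 fold change was 0.19 ± 0.34 in heart, 0.04 ± 0.35 in kidney, 0.23 ± 0.45 in the liver-named table and -0.31 ± 0.43 in spleen. H2-D1 lay between -0.11 ± 0.33 in the brain-named table and 0.23 ± 0.26 in kidney, where its fold change of 1.17 had a 95% interval of 0.83 to 1.66. A group mean is called implied where it is computed from the deposited mean and fold change with equal weight of both genotypes, since the tables hold no group means.

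Over the class I genes of the brain-named table, 16 of 19 tested members had negative values, with a median log2 fold change of -0.33, while 46.7% of all tested genes there were negative, with a median of 0.04. None passed the threshold. The summed implied level of class I was 7684 ppm in WT and 6011 in Ftsj1_DF. H2-Q10 had -0.45 ± 0.33 (adjusted p = 0.707), with implied means of 215966 in WT and 158379 in Ftsj1_DF. H2-Q3 had -0.85 ± 0.35 (adjusted p = 0.292), the lowest adjusted p of the class there, with implied means of 1035 and 574. H2-M11, a gene of the M region with a mean of only 21.4, had the most negative value, -1.40 ± 0.80 (adjusted p = 0.547), and H2-M2 the most positive, 0.19 ± 0.45. In the same table the 8 hepatocyte markers summed to an implied 178100 ppm in WT and 302004 in Ftsj1_DF, with 7 of 8 positive and a median of 0.50. Most of that sum was Alb (0.78 ± 0.41), at 223022 ppm with both genotypes together, and 0 of the 8 passed. Pancreatic acinar markers there, 7 of 7 tested positive with a median of 4.04, summed to 459 ppm in WT and 6366 in Ftsj1_DF, and 1 of them, Amy2a5, passed. Macrophage markers there, 11 of 12 positive with a median of 0.36, summed to 433 ppm in WT and 561 in Ftsj1_DF. Of them Marco passed, at 2.47 ± 0.66 (adjusted p = 0.0489), where 0.414% of all tested genes passed. Dendritic cell markers were positive in 5 of 7 tested and B cell markers in 4 of 11. The part of these markers in the class I values was not tested.

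In the other tables the class I medians were -0.22 in heart, -0.11 in kidney, -0.01 in the liver-named table and -0.04 in spleen, with 8 of 15, 7 of 13, 7 of 14 and 11 of 20 tested members negative. H2-Q7, a nonclassical gene of the Q region, had 0.97 ± 0.43 in heart (adjusted p = 0.355), with implied means of 296 in WT and 581 in Ftsj1_DF. H2-T22 had 0.66 ± 0.33 in heart (adjusted p = 0.446) and -0.75 ± 0.54 in the liver-named table. H2-Q4 had 0.66 ± 0.26 in kidney (adjusted p = 0.200), a fold change of 1.58 with a 95% interval of 1.11 to 2.25, and implied means of 1891 in WT and 2991 in Ftsj1_DF. H2-T3, the thymus leukaemia antigen, had -2.74 ± 1.25 in kidney (adjusted p = 0.324) on a mean of 12.9. The remaining extremes of the class were H2-Q1 in heart (-0.74 ± 0.63), H2-M5 (-1.31 ± 1.43) and H2-Q5 (0.94 ± 0.61) in the liver-named table, and H2-M2 (-0.93 ± 0.79) and H2-M10.5 (1.61 ± 1.10) in spleen. H2-M10.5 had a mean of 5.74 there, so its value rests on few tags. In kidney, H2-Q2 (2.48 ± 1.24, mean 41.8) and H2-M6-ps (-0.46 ± 1.36, mean 41.8) have no deposited p. DESeq2 leaves out the p of a gene with an outlying library by default, but the reason is not stated in the tables.

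Of the transport and loading genes, Tap1 had -0.64 ± 0.39 (adjusted p = 0.600) in the brain-named table, 0.48 ± 0.41 in heart, -0.04 ± 0.30 in kidney, -0.52 ± 0.40 in the liver-named table and -0.47 ± 0.64 in spleen. Tap2 ranged from -0.70 ± 0.95 in kidney to 0.04 ± 0.36 in heart. Tapbp had 0.22 ± 0.52 in the brain-named table, 0.66 ± 0.58 in heart, -0.81 ± 0.64 in kidney and -0.76 ± 0.53 in the liver-named table. Its spleen value, -1.09 ± 0.69 on a mean of 669, has no deposited p. All 3 genes were positive in heart and negative in kidney and the liver-named table, and every 95% interval of the 3 included 0.

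**Figure D4:**
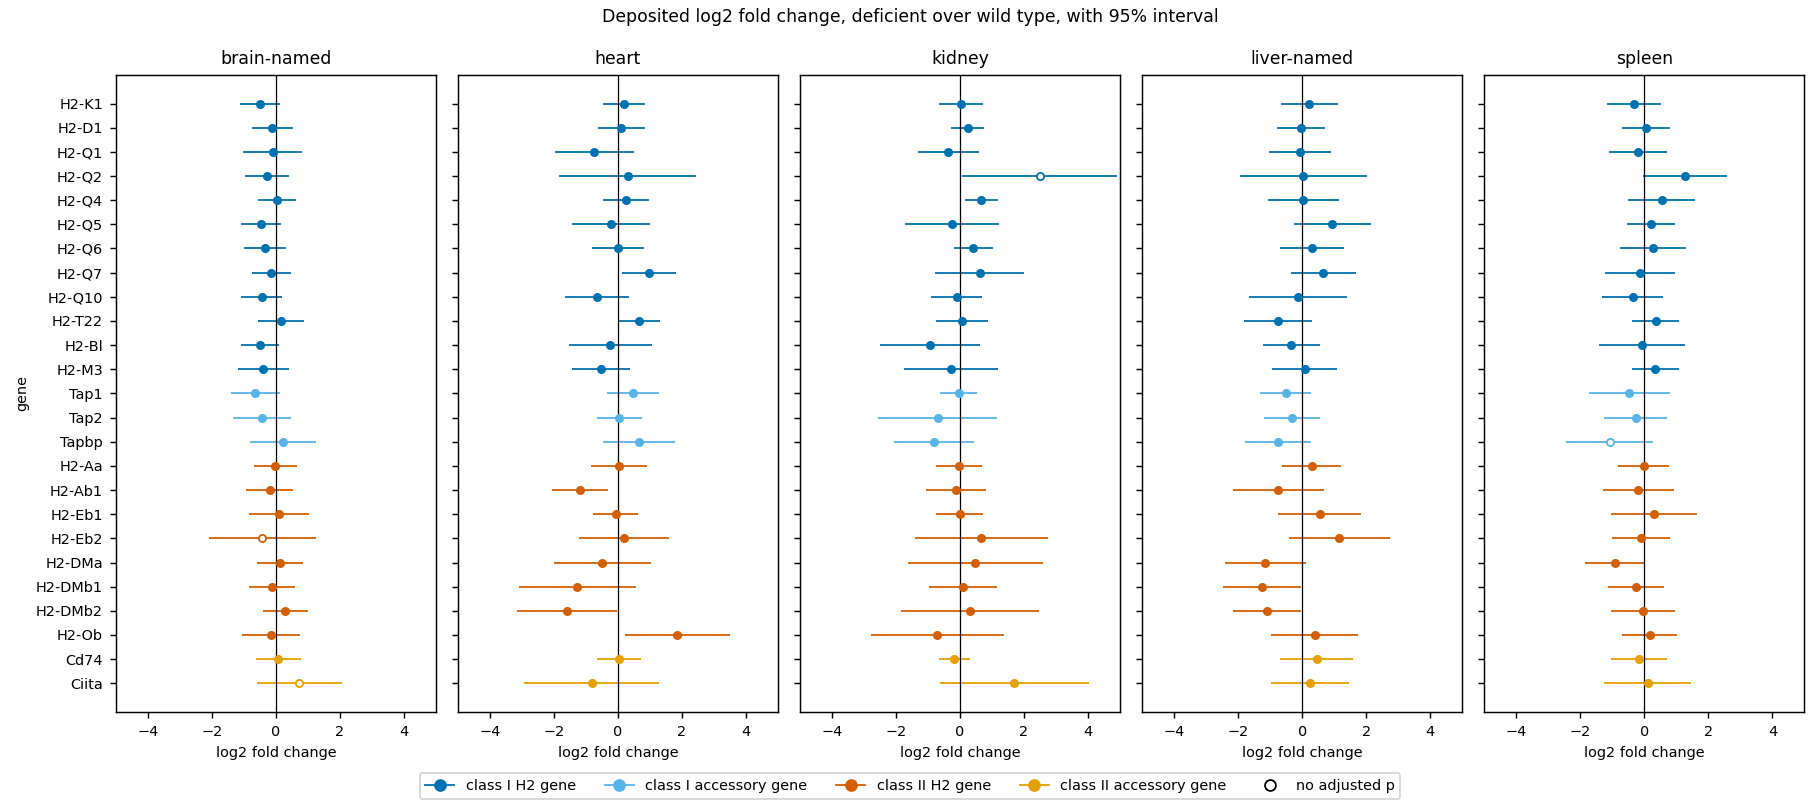
Deposited log2 fold change (Ftsj1_DF over WT, horizontal axis) with its 95% interval from the deposited SE for 25 MHC genes (rows) in the 5 tables (panels), coloured by class; open points have no adjusted p. Most intervals cross 0, and none of the genes passed an adjusted p of 0.05; H2-Ab1 in heart lies at -1.19.

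In heart the class II genes had values on both sides of 0 and the lowest unadjusted p among all members. H2-Ab1 had -1.19 ± 0.45 (unadjusted p = 0.00769, adjusted p = 0.201), a fold change of 0.44 with a 95% interval of 0.24 to 0.80, and implied means of 1014 in WT and 444 in Ftsj1_DF. Its partner chain H2-Aa had 0.03 ± 0.45 in the same libraries, H2-Eb1 -0.07 ± 0.36 and Cd74 0.03 ± 0.34. H2-DMb2 and H2-DMb1, the beta chains of H2-DM, had -1.58 ± 0.80 (adjusted p = 0.456, mean 66.7) and -1.27 ± 0.93. H2-Ob had 1.85 ± 0.84 (adjusted p = 0.370), with implied means of 37.1 in WT and 134 in Ftsj1_DF. B cell markers in heart had a median of -1.28, with 7 of 9 tested negative, and Ighm, the heavy chain of immunoglobulin M, fell by 2.28 ± 0.66 on the log2 scale (adjusted p = 0.0481). Their summed implied level was 151 ppm in WT and 40.0 in Ftsj1_DF, most of it from Ighm, and 22.6 and 13.7 ppm without that gene, with 1 of the 12 listed at 0. Dendritic cell markers there summed to 28.1 and 22.5 ppm, with 4 of 6 tested negative, Clec9a at -2.08 ± 0.79 (adjusted p = 0.216) and Batf3 at 1.38 ± 0.59 (adjusted p = 0.324), and macrophage markers to 241 and 275. Other cell marker lists had negative values in heart too. All tested hepatocyte (7 of 7), neuron (7 of 7) and pancreatic acinar markers (9 of 9) were negative. So were 5 of 7 proximal tubule, 4 of 7 cardiomyocyte, 2 of 4 microglia, 4 of 9 T cell, 5 of 12 macrophage and 2 of 9 endothelial markers. Of the T cell markers, Cd5 passed at -4.53 ± 0.89 (adjusted p = 0.000503), where 1.19% of all tested genes passed. Whether any of these cells have a part in the heart values was not tested.

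In the liver-named table all 3 H2-DM genes were negative by more than a log2 of 1. H2-DMb1 had -1.25 ± 0.62 (adjusted p = 0.460), H2-DMa -1.15 ± 0.64 (adjusted p = 0.538) and H2-DMb2 -1.10 ± 0.54 (adjusted p = 0.454). Their implied means were 496 in WT and 208 in Ftsj1_DF for H2-DMb1, 1397 and 629 for H2-DMa, and 154 and 72 for H2-DMb2. The 3 genes lie next to each other and 2 are near copies, so their values are not independent. H2-DMa also overlaps Brd2 in the RefSeq annotation. Other class II genes of that table were H2-Eb1 at 0.55 ± 0.66, H2-Aa at 0.29 ± 0.47, H2-Ab1 at -0.74 ± 0.72 and H2-Eb2 at 1.16 ± 0.80 (mean 24.5). Microglia markers in the liver-named table, 1 of 5 tested positive, summed to an implied 151 ppm in WT and 82.8 in Ftsj1_DF, and macrophage markers to 383 and 277. Their part in the H2-DM values was not tested.

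The class II medians were -0.01 in the brain-named table, -0.28 in heart, 0.04 in kidney, -0.23 in the liver-named table and -0.03 in spleen. In kidney H2-Aa, H2-Eb1 and H2-Ab1 had -0.02 ± 0.37, -0.01 ± 0.37 and -0.14 ± 0.48, with H2-Ob (-0.71 ± 1.06) and H2-Eb2 (0.67 ± 1.06) at the ends. In the brain-named table the class ran from H2-Ab1 at -0.18 ± 0.37 to H2-DMb2 at 0.30 ± 0.36. Spleen, where the class is highest, gave -0.01 ± 0.40 for H2-Aa, -0.19 ± 0.57 for H2-Ab1 and 0.31 ± 0.69 for H2-Eb1. H2-DMa had the most negative spleen value, -0.92 ± 0.48 (adjusted p = 0.852), with implied means of 1026 in WT and 542 in Ftsj1_DF. H2-Ea was tested in spleen alone, at 0.20 ± 0.95 on a mean of 5.71. Cd74 lay between -0.18 ± 0.24 in kidney and 0.45 ± 0.58 in the liver-named table. Ciita lay between -0.83 ± 1.08 in heart and 1.70 ± 1.19 in kidney, where its mean was 12.5.

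Across the tables, 21 members were tested in all 5, and 16 members in none. H2-Ab1, H2-Q1, H2-Q10 and H2-Bl were negative in all 5 tables, and H2-Q4 was positive in all 5, at 0.03 in the liver-named table to 0.66 in kidney. The other 16 had both signs. The brain-named, heart, kidney and liver-named tables come from the same 6 mice, so equal signs in them are not independent. The difference between the genotype effects of 2 tables was then computed for each member and pair of tables, as a z from the deposited SEs, adjusted over all genes of the pair. None of 255 such member differences passed an adjusted p of 0.05, against 0.393% of all genes over the 10 pairs. There were 9 at an unadjusted p under 0.05, and the smallest adjusted p was 0.391, for H2-T3 between the brain-named table and kidney. H2-DMb2 differed by 1.88 ± 0.87 between the brain-named table and heart (adjusted p = 0.413), and H2-T22 by 1.41 ± 0.63 between heart and the liver-named table (adjusted p = 0.537).

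Other genes of antigen presentation were counted from 4 lists. Of 16 class I loading genes, 14 were tested in each table and 0 passed. The largest statistics were those of Calr, a chaperone of the loading complex, in heart (0.60 ± 0.28, adjusted p = 0.408) and kidney (0.60 ± 0.31, adjusted p = 0.417), Psme2, an activator of the proteasome, in the brain-named table (0.82 ± 0.47) and spleen (-0.76 ± 0.61), and Sppl2a, an intramembrane protease, in the liver-named table (0.56 ± 0.34). Of 14 class II processing genes, all were tested in each table and 0 passed. Ifi30, a thiol reductase of endosomes, had 1.06 ± 0.59 in the liver-named and 1.08 ± 0.36 (adjusted p = 0.142) in the brain-named table, Ctss, the protease that trims the invariant chain, 0.76 ± 0.37 in the latter, Ctsl 0.36 ± 0.29 in heart, Marchf1 -0.91 ± 0.50 in kidney and Ctsl -0.56 ± 0.58 in spleen.

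Of 21 regulators of MHC transcription, 19 to 21 were tested and 0 passed. Irf8, a factor of myeloid and B cells, had 0.84 ± 0.28 in kidney (adjusted p = 0.0983) and -1.44 ± 0.72 in the liver-named table. Irf2 had -0.88 ± 0.31 (adjusted p = 0.176) in the brain-named table, Jak2 -1.36 ± 0.56 in heart (adjusted p = 0.285) and Rfxap, part of the factor that binds class II promoters, 1.43 ± 0.70 in spleen. Ifng in kidney, at 7.02 ± 2.95 on a mean of 12.6, shows how wide the error of a low gene is. In spleen 17 of the 20 tested regulators were positive, with a median of 0.25, where all genes had a median of -0.01. This was not particular to regulators, since 12 of 15 genes of the receptor list given next and 9 of 11 T cell markers were positive there. Of the class I loading genes 6 of 14 were positive, and of the macrophage markers 5 of 12.

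Of 18 receptors, co-receptors and MHC-like ligands, 13 to 15 were tested, and a single gene passed, in kidney, where 2.07% of all tested genes passed. Ulbp1, an MHC class I-like ligand of the natural killer receptor NKG2D, fell by 4.43 ± 1.31 on the log2 scale in kidney (adjusted p = 0.0379), with implied means of 173 in WT and 8.04 in Ftsj1_DF. It had 2.14 ± 0.63 (adjusted p = 0.0889) in the brain-named table, in the liver-named table -1.32 ± 0.70, in heart 0.42 ± 0.94 and in spleen 1.02 ± 0.74. Others of this list were Klrd1, a natural killer receptor chain, in kidney (2.58 ± 0.98, adjusted p = 0.178), Pirb, an inhibitory class I receptor, in heart (1.24 ± 0.69) and the brain-named table (1.19 ± 0.46, adjusted p = 0.246), Azgp1 in heart (-1.25 ± 0.47, adjusted p = 0.213), Fcgrt in the liver-named table (-0.53 ± 0.36) and Procr in spleen (1.85 ± 0.99).

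Of the 51 members, 8 were listed at 0 in all 5 tables: B2m, H2-K2, H2-Ke6, H2-Oa, H2-Pa, H2-T10, H2-T23 and H2-T24. B2m is a gene that nearly every cell uses, so its 0 cannot be read as a lack of transcript. In the RefSeq annotation 6 of these 8 overlap another gene, such as Patl2 at B2m and A930015D03Rik at H2-T23 and H2-T24, against 7 of the 43 other members. Those 7 include H2-DMa, which overlaps Brd2, and H2-T22, which also overlaps A930015D03Rik. Patl2 had 3.57 to 6.23 ppm in the 5 tables. Reads on overlapping genes may have been left out in counting, and this was not tested. The 8 are 15.7% of the members. Among 21218 RefSeq protein-coding genes, 6.86% were also listed at 0 in all tables, and among all 55289 named genes 30.9%. The members include pseudogenes, and of those at 0 H2-K2, H2-Pa and H2-T10 are pseudogenes in RefSeq. Low values do not follow transcript abundance either, since Gapdh, an abundant housekeeping gene, had means of only 4.59 to 49.2.

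The genes whose level followed the classical class I pattern most closely across the 5 tables, by the Pearson correlation of log2(ppm + 1) with the mean of H2-K1 and H2-D1, were H2-Q7 (r = 0.994), Mdfic (r = 0.991), Ces2g (r = 0.987), Cyp39a1 (r = 0.982) and Irf7 (r = 0.979), of 23350 genes. For the classical class II pattern they were Tln1 (r = 0.996), Tep1 (r = 0.995), Clec9a (r = 0.995), Elavl1 (r = 0.992) and Gm10269 (r = 0.992), with Cd74 at r = 0.968. A correlation over 0.99 was reached by 2 of 23350 genes for the class I pattern and by 7 of 23348 for the class II pattern. These values rest on 5 points that share each table's scaling, were not tested, and are given as a description.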

How the data were processed

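Per the labels' protocols, poly(A) RNA was isolated from 5 ug of total RNA, its uncapped molecules received an adapter, and EcoP15I released the short tags that were read. Per the submitters' processing notes, the build was GRCm39 and featureCounts, Subread 2.0.3 and DESeq2 were used; their settings and the aligner are not given in the sources used here.

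The deposited tables hold the authors' comparison and no value per library. The deposited mean is a signal, in normalised counts, which the authors averaged across an organ's libraries of both genotypes. The authors' fold changes are log2 values, and so are the standard errors. Their Wald statistic is a deposited score, equal to the log2 fold change over its standard error. The authors' p-value and adjusted p-value were used as deposited, with a threshold of 5%. A row without a gene name, under 0.00001% of each table sum, was left out. The genotype comparison within a table was not tested anew.

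Computed here were levels in ppm of each table sum, 95% intervals, implied group means, ratios, list counts and medians, and the z for a difference between 2 tables, which treats tables as independent although 4 organs share mice. That z was run on simulated data whose errors were drawn independently per table from the deposited SEs. The simulation checked the computation only and could not show the effect of shared mice. Promoters came from RefSeq (GRCm38.p6), so no coordinate was joined to the tables; all 51 members matched a RefSeq gene by symbol and 35 had a promoter. The work used Biopython 1.88, scipy 1.17.1, pandas 2.3.3, numpy 2.4.6 and matplotlib 3.10.9 under Python 3.11.15.

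The members and lists were chosen with earlier results of these data known. Named with values are classical and accessory members, the extremes of each class and table, members with a mean of at least 20 and no p, list members past the threshold or otherwise those of largest statistic, and the 5 genes of most like pattern; H2-T22, H2-M3 and further Q and H2-DM genes, and marker genes, were named after their values were seen. Of the list genes that the rule selects, 1 is not reported here. Alternatives were thresholds of 1% and 10%, adjustment over all genes with a p, a minimum mean of 20, a minimum log2 change of 1, a rescaled statistic and 2 other scalings of the levels.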

Additional observations from a re-analysis of the deposited data

Results flagged for a closer look

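Ulbp1, an MHC class I-like ligand, had opposite genotype effects in the brain-named table (2.14 ± 0.63 on the log2 scale, SE) and in kidney (-4.43 ± 1.31), and the difference of 6.57 ± 1.45 passed the test between tables (z = 4.54, adjusted p = 0.00340 over all genes tested in both). It was the sole such difference among the 68 genes of the 4 antigen presentation lists, where 216 of 16656 genes passed for this pair of tables and 0.393% over all 10 pairs, so a single call is near the background. Its mean normalised count was 90.8 in kidney and 47.1 in the brain-named table, both come from the same 6 mice, and values per library were not used here.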

How the results depend on the processing

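The count of MHC genes past the threshold was 0 in each of the 5 tables and stayed 0 at 1% and 10%, with adjustment over all genes with a p, a minimum mean of 20, a minimum log2 change of 1 and a rescaled statistic. In the main setting 10 of 144 tested member values had an unadjusted p under 0.05, by the authors' DESeq2 test. The class medians had 30 alternative values, and some of them changed sign. In heart the class I median was -0.22, against 0.005 with a minimum mean of 20 and -0.53 over every member with a fold change. In kidney the class I median was -0.11 and became 0.04 over every member with a fold change. Between tables, 0 of 233 member differences passed with a mean of at least 20 in both, and the smallest adjusted p was then 0.406. The class I level of the brain-named table over spleen, H2-Q10 included, was 1.59. It became 1.79 without the 10 highest genes of each table and 2.37 by a median of ratios. Class II in spleen over kidney was 4.21 and became 5.56 and 6.44, the last moving by over 1.5 times; the cause was not tested. No paired analysis was possible because the tables hold no columns per library, and for the same reason no replicate could be left out. Depth per library is unknown, and the SE sets what can be detected.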
